A study of Homo sapiens with 6 samples.

Results

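APC and 8 further genes at the core of canonical Wnt signalling were examined for peaks of plasminogen activator inhibitor-1 (PAI-1) on chromatin. The genes were the destruction complex members APC, AXIN1, AXIN2 and GSK3B, the β-catenin gene CTNNB1, and the 4 genes of the TCF/LEF family, TCF7, TCF7L1, TCF7L2 and LEF1. They were picked by name for their place in the pathway, with earlier results of these data known. They are 9 of 20162 protein-coding genes in the annotation. The peaks came from chromatin immunoprecipitation and sequencing (ChIP-seq) with a monoclonal antibody against PAI-1 on nuclear extracts of RT112 cells and of UM-UC-3 cells, which are established lines from human bladder cancer and for which no treatment is stated. Each cell line had 2 biological replicate ChIP libraries and 1 input library. The 4 ChIP libraries were analysed as deposited peak lists, and the 2 inputs were not analysed here. Each cell line is a single line grown in culture, so the spread between its 2 libraries is that of repeat samples of 1 line.

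In canonical Wnt signalling, a cytoplasmic destruction complex built on APC and axin lets the kinase GSK3β phosphorylate β-catenin, which marks it for degradation. When a Wnt ligand binds its receptors the complex is inhibited, β-catenin accumulates and enters the nucleus, and there it joins TCF/LEF factors on DNA. APC is a tumour suppressor best known from colorectal cancer, and AXIN2 is itself a widely used target gene of the pathway. PAI-1 is a secreted inhibitor of plasminogen activators, and the study asked whether it also meets DNA in the nucleus.

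A peak was assigned to a gene when it overlapped the gene or lay within 10 kb of it, and this span is called the gene window below. The 9 windows summed to 1309.1 kb. RT112 had 39 peaks there in replicate 1 and 20 in replicate 2, while UM-UC-3 had 47 in replicate 1 and 55 in replicate 2. Most of these peaks were intronic, but the genes themselves also made up most of each window. The share of the windows that is intron is not given here. Of the windows' peaks, 33, 16, 34 and 43 lay in introns in that order of libraries, and 5, 3, 10 and 10 lay outside the gene. Coding exons were touched by 2 peaks in each UM-UC-3 library and by none in RT112.

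The DNA under the peaks that best carry the results is shown first. For each gene and cell line, a peak was called repeated when it overlapped a peak of the other replicate by at least 1 bp. The lines below give repeated peaks, in most cases the one with the highest mean score of its gene and cell line, on the plus strand of GRCh37 and cut to the central 300 bases where the peak was longer. Capitals mark the longest unbroken run of purines or pyrimidines. Borders of repeated peaks are those of replicate 1. The first 2 lines are APC, the upstream peak with the highest mean score and the peak nearest to its canonical start site. The higher score of the upstream peak belongs to replicate 2, whose interval reaches beyond the stretch shown.
APC, UM-UC-3, 6.427 kb upstream of the gene, chr5:112036639-112036938: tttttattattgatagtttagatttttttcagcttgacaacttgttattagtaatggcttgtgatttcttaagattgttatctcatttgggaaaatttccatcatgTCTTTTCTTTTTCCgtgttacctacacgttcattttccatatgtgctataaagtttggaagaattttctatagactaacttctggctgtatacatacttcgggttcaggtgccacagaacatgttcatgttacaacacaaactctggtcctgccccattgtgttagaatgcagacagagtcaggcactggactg
APC, UM-UC-3, intron 1, chr5:112075908-112076148: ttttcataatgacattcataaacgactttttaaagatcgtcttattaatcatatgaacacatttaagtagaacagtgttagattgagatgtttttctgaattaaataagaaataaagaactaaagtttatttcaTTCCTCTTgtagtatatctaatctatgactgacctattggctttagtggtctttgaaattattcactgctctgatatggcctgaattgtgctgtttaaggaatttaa

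The next line shows the one repeated peak of CTNNB1.
CTNNB1, RT112, past the last exon of the canonical transcript, chr3:41284609-41284908: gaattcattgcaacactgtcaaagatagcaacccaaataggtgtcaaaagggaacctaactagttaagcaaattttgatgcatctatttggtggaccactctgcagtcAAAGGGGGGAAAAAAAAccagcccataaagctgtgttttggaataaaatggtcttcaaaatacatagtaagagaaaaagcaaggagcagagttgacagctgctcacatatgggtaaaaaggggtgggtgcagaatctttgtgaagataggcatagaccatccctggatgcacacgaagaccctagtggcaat

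The last 6 lines show the best peak of each of TCF7L1 and GSK3B in RT112 and of TCF7L2 in both cell lines, the second TCF7L2 peak beside an internal start site, and the only stretch that both cell lines shared.
TCF7L1, RT112, intron 3, chr2:85473225-85473524: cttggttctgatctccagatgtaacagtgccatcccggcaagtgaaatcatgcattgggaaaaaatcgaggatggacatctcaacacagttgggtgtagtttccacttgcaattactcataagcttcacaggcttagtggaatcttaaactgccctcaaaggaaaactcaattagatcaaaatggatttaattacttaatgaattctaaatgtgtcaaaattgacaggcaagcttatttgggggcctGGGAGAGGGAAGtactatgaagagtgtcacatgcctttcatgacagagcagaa
TCF7L2, RT112, intron 4, chr10:114749697-114749996: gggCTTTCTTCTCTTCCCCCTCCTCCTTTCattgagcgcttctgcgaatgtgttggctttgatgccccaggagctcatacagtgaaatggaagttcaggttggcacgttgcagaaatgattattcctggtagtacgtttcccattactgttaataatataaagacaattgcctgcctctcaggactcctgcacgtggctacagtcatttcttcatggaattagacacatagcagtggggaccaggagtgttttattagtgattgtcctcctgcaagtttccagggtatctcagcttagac
TCF7L2, UM-UC-3, intron 5, chr10:114887444-114887743: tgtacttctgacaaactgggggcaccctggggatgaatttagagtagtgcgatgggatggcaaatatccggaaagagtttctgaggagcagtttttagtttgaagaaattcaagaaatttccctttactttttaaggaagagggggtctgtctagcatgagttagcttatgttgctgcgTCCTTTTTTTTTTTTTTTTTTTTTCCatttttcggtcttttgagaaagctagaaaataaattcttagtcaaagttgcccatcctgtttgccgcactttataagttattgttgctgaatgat
TCF7L2, UM-UC-3, intron 5, chr10:114887999-114888262: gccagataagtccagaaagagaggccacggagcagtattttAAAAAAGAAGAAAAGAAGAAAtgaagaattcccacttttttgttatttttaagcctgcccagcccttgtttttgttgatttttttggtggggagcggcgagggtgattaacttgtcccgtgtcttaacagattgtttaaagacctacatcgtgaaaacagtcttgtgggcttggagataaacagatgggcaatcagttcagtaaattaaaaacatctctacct
TCF7L2, shared stretch of both cell lines, intron 5, chr10:114828201-114828253: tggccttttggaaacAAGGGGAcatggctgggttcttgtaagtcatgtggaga
GSK3B, RT112, intron 1, chr3:119768262-119768523: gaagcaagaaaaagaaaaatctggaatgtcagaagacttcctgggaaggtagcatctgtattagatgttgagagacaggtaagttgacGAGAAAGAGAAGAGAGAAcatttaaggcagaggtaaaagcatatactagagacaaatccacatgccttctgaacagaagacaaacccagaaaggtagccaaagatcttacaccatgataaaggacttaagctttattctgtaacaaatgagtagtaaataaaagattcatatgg

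Most of the 9 genes held a peak, as most genes did. At least 1 peak was found in 8 of the 9 genes in RT112 replicate 1, where 65.9% of all protein-coding genes had one, and in 5 in RT112 replicate 2, where 54.7% had one. In UM-UC-3, 8 of the 9 genes had a peak in replicate 1 and 9 in replicate 2, beside 70.9% and 71.8% of all genes. Both replicates had a peak in 5 of the 9 genes in RT112 (50.2% of all genes) and in 8 in UM-UC-3 (65.7% of all genes). A repeated peak was present in 5 of the 9 genes in RT112, beside 43.2% of all genes, and in 7 in UM-UC-3, beside 63.3%. These shares of all genes include many genes shorter than the 9, so each gene was also set beside the 200 protein-coding genes nearest to it in length.

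**Figure D1:**
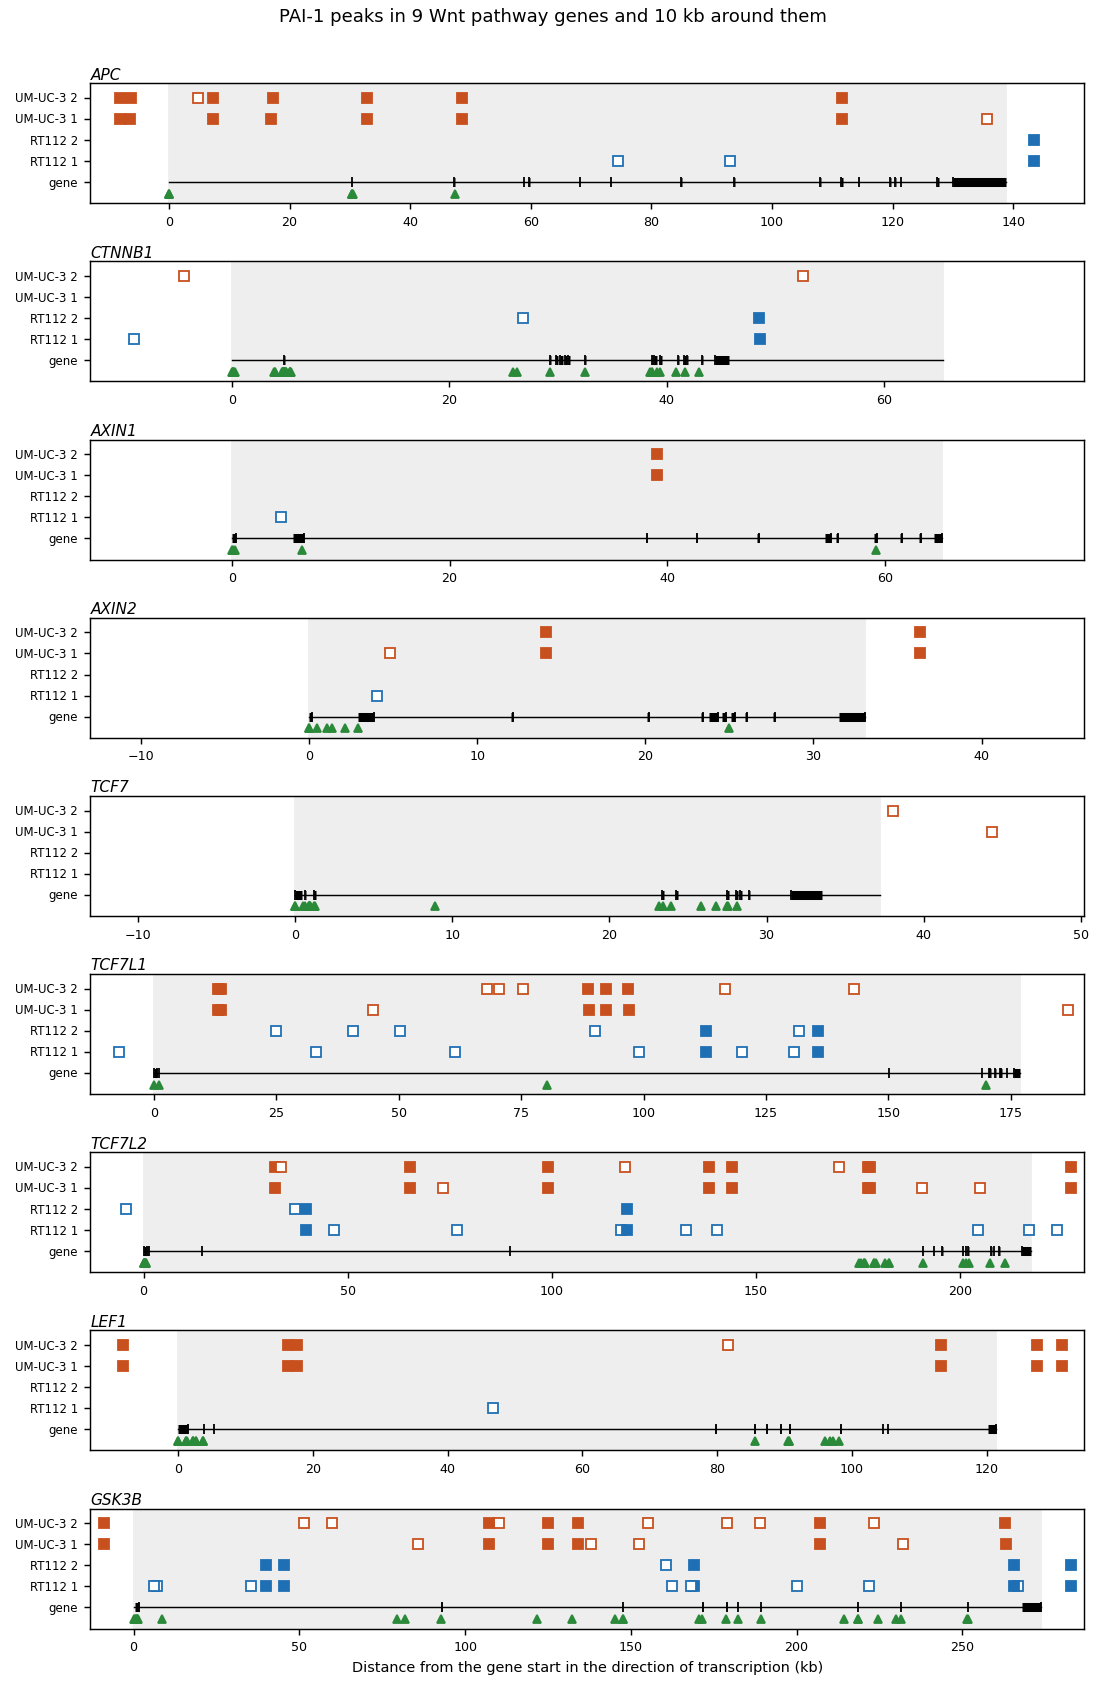
Position of every peak in the 9 gene windows, with the distance from the gene start in kb on the horizontal axis and 1 row for each library. Squares stand at peak midpoints and are not drawn to width, filled squares are repeated peaks and open squares were found in 1 replicate only. Grey marks the gene, black bars the exons of the canonical transcript and green triangles annotated transcription start sites. The 8 APC peaks of each UM-UC-3 library, the empty TCF7 gene and the lone RT112 peak of LEF1 can be read from it.

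The density of peaks in the 9 windows together was 29.8 and 15.3 peaks per Mb in RT112 replicates 1 and 2, a mean of 22.5 ± 10.3 (SD, n = 2). In UM-UC-3 it was 35.9 and 42.0 peaks per Mb, a mean of 39.0 ± 4.32 (SD, n = 2). Both UM-UC-3 libraries lay above both RT112 libraries. All protein-coding genes behaved alike, with RT112 medians of 23.6 and 10.6 peaks per Mb and UM-UC-3 medians of 28.8 and 30.1 peaks per Mb. The libraries also differed in size, since the RT112 lists held 96423 and 60227 peaks while the UM-UC-3 lists held 109287 and 114094. The difference between the cell lines over the 9 windows was 0.0164 peaks per kb, and 0.00917 peaks per kb without RT112 replicate 2, the library with the fewest peaks. Scaled to 100000 peaks per library, a setting chosen after the data had been seen, it was 0.00671 peaks per kb, from 0.0281 in RT112 to 0.0348 in UM-UC-3.

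APC, AXIN2, TCF7, TCF7L2 and LEF1 had more peaks in both UM-UC-3 libraries than in both RT112 libraries, 5 of 9 genes where 30.8% of all genes did so. More peaks in both RT112 libraries were found in 0 of the 9 genes, beside 9.62% of all genes. With 2 libraries per cell line an exact two-sided permutation test over the libraries cannot give a p-value below 0.333, so no single gene could pass a threshold of 0.05. When counts were scaled in this way, the genes higher in UM-UC-3 were 4, APC, AXIN2, TCF7 and LEF1 (27.2% of all genes), and CTNNB1 was higher in RT112 (1 of 9 genes, beside 22.9% of all genes). The shares of all genes beside these counts include many genes shorter than the 9. No such share is given for genes of similar length, and the part of gene length in these counts was not tested.

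The destruction complex is described first. APC, the scaffold that holds β-catenin in the complex, lies at chr5:112043215-112181936 on the plus strand and spans 138.7 kb with 10 annotated transcripts. The start site of its canonical transcript lies 30.4 kb inside the gene, since other transcripts begin upstream of it. The APC window held 3 peaks in RT112 replicate 1, 1 in RT112 replicate 2 and 8 in each UM-UC-3 library. The UM-UC-3 libraries were thus level with each other and above both RT112 libraries. The mean was 12.6 ± 8.91 peaks per Mb in RT112 and 50.4 ± 0.0 in UM-UC-3 (SD, n = 2 each), a difference of 37.8 peaks per Mb (two-sided p = 0.333 by the exact permutation test).

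Of the 8 APC peaks of each UM-UC-3 library, 7 were repeated. A pair of them lay upstream of the gene, 8.145 and 6.427 kb from its start. The nearer one was chr5:112036586-112036991 in replicate 1, with a score of 3.88. In replicate 2 it was chr5:112036786-112037008, with a score of 12.9. The score is the peak caller's significance as −log10, of either p or q. The value in replicate 2 stood at the 94.7th percentile of all peaks in its library. A further pair lay between the gene start and the canonical start site, at chr5:112050443-112050705 (scores of 2.64 and 2.63) and chr5:112059994-112060402 (scores of 5.19 and 2.63). In replicate 2 the latter was chr5:112060374-112060600, so the replicates overlapped there only at their borders.

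The peak of APC closest to its canonical start site, chr5:112075908-112076148, lay in intron 1, 2.203 kb downstream of the nearest annotated start site. It had the same ends in both UM-UC-3 libraries, scores of 4.15 and 4.13, and a GC content of 28.2%. Another, chr5:112091726-112091956 in intron 2, lay 1.253 kb downstream of an internal start site with scores of 3.86 and 3.85. The last repeated peak, chr5:112154556-112154929, overlapped a coding exon with scores of 5.19 and 5.16. A second peak in a coding exon, chr5:112178792-112179079, was found only in UM-UC-3 replicate 1, with a score of 6.61. It lay in the large terminal exon, which carries most of the coding sequence of APC.

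RT112 had none of these APC peaks. Its replicate 1 had peaks in intron 6 and intron 7, each with a score of 2.76, and neither was found in replicate 2. The only repeated APC peak of RT112 lay 4.655 kb past the gene end with scores of 4.94 and 2.97.

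The study designed primers for a ChIP-PCR of APC, with the forward primer gtccctccagcctctctgta and the reverse primer gctgtgagttcagcactcct. Each had 1 match on chromosome 5 of GRCh37, and together they spanned 102 bp at chr5:112025323-112025424, 17.8 kb upstream of the annotated gene and in no annotated gene. The amplicon overlapped no peak in any of the 4 libraries. In UM-UC-3 the nearest peak was the upstream APC peak at chr5:112034959-112035182, 9.53 kb away on the side of APC, with scores of 3.88 and 6.57. In RT112 the nearest peak was 25.6 kb away on the far side, at chr5:111999465-111999711, with scores of 3.8 and 2.97.

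AXIN1, the constitutive axin and the scaffold that brings GSK3β to β-catenin, lies at chr16:337440-402723 on the minus strand. Its window of 85.3 kb held 1 peak in RT112 replicate 1, none in RT112 replicate 2 and 1 in each UM-UC-3 library. The RT112 peak, chr16:398041-398385 in intron 1, lay 1.891 kb upstream of an internal start site with a score of 4.81. The UM-UC-3 peak was another one, repeated at chr16:363558-363810 in intron 3 with scores of 2.88 and 2.85. The peak of RT112 replicate 2 nearest to AXIN1 was 77.2 kb past its end. AXIN1 lies near the end of chromosome 16 in a stretch with few peaks in every library, 3.01 and 3.01 per Mb in RT112 and 8.29 and 4.52 per Mb in UM-UC-3 over up to 1 Mb on both sides.

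AXIN2, the inducible axin, lies at chr17:63524681-63557766 on the minus strand. In its window of 53.1 kb, RT112 had 1 peak in replicate 1 and none in replicate 2, and UM-UC-3 had 3 in replicate 1 and 2 in replicate 2. The mean was 9.42 ± 13.3 peaks per Mb in RT112 and 47.1 ± 13.3 in UM-UC-3 (SD, n = 2 each), a difference of 37.7 peaks per Mb (exact permutation test, two-sided p = 0.333). In counts this was a step from 0 or 1 to 2 or 3 peaks. One of the repeated UM-UC-3 peaks, chr17:63543539-63543856 in intron 3, had the same ends in both libraries and low scores of 2.52 and 2.51. The other lay 3.138 kb past the gene end with scores of 2.25 and 6.98.

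AXIN2 also had a peak near internal start sites in each cell line, in intron 2. In RT112 replicate 1 it was chr17:63553609-63553848, 1.119 kb from a start site with a score of 2.63. In UM-UC-3 replicate 1 it was chr17:63552810-63553110, 1.887 kb from a start site with a score of 4.36. The peaks did not overlap, and neither was found in the other replicate.

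GSK3B, the gene of the kinase that phosphorylates β-catenin, is the longest of the 9 at 273.7 kb (chr3:119540168-119813841, minus strand). In its window RT112 had 13 and 6 peaks, and UM-UC-3 had 10 and 13. The ranges overlapped, with means of 32.4 ± 16.9 peaks per Mb in RT112 and 39.2 ± 7.22 in UM-UC-3 (SD, n = 2 each; exact permutation test, two-sided p = 1.0). The direction was not stable, since the difference of 0.00681 peaks per kb turned to -0.00511 without RT112 replicate 2 and to -0.00494 when scaled to library size.

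The GSK3B peaks that were repeated lay at different places in the cell lines. RT112 had 5, of which chr3:119768262-119768523 in intron 1 scored highest, with 10.1 and 7.9. UM-UC-3 had 6, and the best of them, chr3:119688272-119689255 in intron 2, was 984 bp wide and scored 11.3 and 8.05. Near start sites, RT112 had a repeated peak at chr3:119644621-119644967, 1.514 kb upstream of an internal start site with scores of 2.3 and 3.27, and UM-UC-3 had one at chr3:119679746-119680000, 1.806 kb downstream of another with scores of 3.88 and 6.57.

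A further group of GSK3B peaks within 3 kb of an annotated start site was found in 1 library each. RT112 replicate 1 had a pair in intron 1, 1.548 kb (score of 3.18) and 2.507 kb (score of 2.76) upstream of the start sites nearest to them, and a peak each in intron 8 (2.609 kb, score of 4.94) and intron 3 (2.462 kb, score of 2.76). UM-UC-3 replicate 1 had a peak at 0.581 kb in an exon of a shorter transcript (score of 3.88). UM-UC-3 replicate 2 had peaks at 1.179 kb (score of 3.85), at 0.221 kb (score of 2.63) and, in a coding exon, at 0.053 kb (score of 6.57). GSK3B has 69 annotated transcripts, and its internal start sites are spread over the gene.

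CTNNB1, the gene of β-catenin, lies at chr3:41236232-41301587 on the plus strand. In its window of 85.4 kb each RT112 library had 2 peaks, and UM-UC-3 had none in replicate 1 and 2 in replicate 2. Its mean was lower in UM-UC-3, 11.7 ± 16.6 peaks per Mb, than in RT112, 23.4 ± 0.0 (SD, n = 2 each; exact permutation test, two-sided p = 1.0). The ranges touched, and without UM-UC-3 replicate 1 the difference was 0.0.

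RT112 had 1 repeated CTNNB1 peak, chr3:41284448-41285068, with scores of 6.15 and 2.37. It lay past the last exon of the canonical transcript, in an intron of a longer one. A peak of RT112 replicate 2 alone, chr3:41262853-41263078, lay 0.52 kb downstream of an internal start site with a score of 2.97. UM-UC-3 had no repeated peak here: its replicate 2 had one 4.267 kb upstream of the gene (score of 2.63) and one past the last exon of the canonical transcript at chr3:41288536-41288986 (score of 3.19), and in replicate 1 the nearest peak was 14.1 kb upstream.

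Among the TCF/LEF factors, TCF7 had the fewest peaks. TCF7 encodes TCF1, a factor with a large role in T cells, and lies at chr5:133450372-133487556 on the plus strand. Its window of 57.2 kb held no peak in either RT112 library and 1 in each UM-UC-3 library. No library had a peak inside TCF7 itself. The UM-UC-3 peaks lay 6.991 kb (score of 4.87) and 0.714 kb (score of 2.63) past the gene end, did not overlap each other, and lay within SKP1. In RT112 the nearest peaks were 28.7 and 28.8 kb past the gene end. The difference between the cell lines was 0.0175 peaks per kb over the TCF7 window and 0.0116 with 3 kb on both sides. It was 0.0 over the gene body alone and 0.0 for peaks with a score of at least 5.

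TCF7L1, the gene of TCF3, which mostly acts as a repressor of Wnt targets, lies at chr2:85360515-85537510 on the plus strand. In its window of 197.0 kb RT112 had 8 and 7 peaks, and UM-UC-3 had 7 and 10. The ranges overlapped, with means of 38.1 ± 3.59 and 43.2 ± 10.8 peaks per Mb (SD, n = 2 each; exact permutation test, two-sided p = 1.0). Without UM-UC-3 replicate 2 the difference turned from 0.00508 to -0.00254 peaks per kb, and scaled to library size it was -0.0121. Nearly all of the peaks lay in intron 3, which takes up most of the gene.

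The best peak of TCF7L1 in RT112, chr2:85473225-85473524, had scores of 11.6 and 7.9, the highest of the 9 genes in replicate 1 of that line. In UM-UC-3 the best repeated peak was chr2:85374036-85374267, with the same ends in both libraries and scores of 8.09 and 5.16. Its neighbour at chr2:85373448-85373713, repeated with the same ends and low scores of 2.64 and 2.63, held a run of 43 purines or pyrimidines. The 2 repeated peaks of RT112 and the 5 of UM-UC-3 did not overlap.

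TCF7L2, the gene of TCF4, the main partner of β-catenin in intestinal epithelium, lies at chr10:114710006-114927437 on the plus strand. Its window of 237.4 kb held 10 and 4 peaks in the RT112 libraries and 11 in each UM-UC-3 library. UM-UC-3 lay above both RT112 libraries, but above replicate 1 by 1 peak only. The means were 29.5 ± 17.9 and 46.3 ± 0.0 peaks per Mb (SD, n = 2 each; exact permutation test, two-sided p = 0.333). Scaled to library size, the ranges overlapped.

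TCF7L2 held the peak with the highest mean score of all repeated peaks in the 9 windows. This was chr10:114887999-114888262 of UM-UC-3, in intron 5, with the same ends in both libraries and scores of 9.65 and 12.9. It lay 0.835 kb upstream of an internal start site, and a second repeated peak, chr10:114887426-114887760 with scores of 3.88 and 2.63, lay 0.877 kb downstream of another. As the lines above show, one held a run of 21 purines and the other a run of 26 pyrimidines, most of them T. UM-UC-3 replicate 1 alone had 2 further peaks near internal start sites, at 0.273 kb (score of 2.53) and 2.47 kb (score of 3.88), and RT112 replicate 1 had one at 2.419 kb (score of 2.51).

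In RT112 the best repeated peak of TCF7L2 was chr10:114749599-114750094 in intron 4, with scores of 6.19 and 5.5 and a run of 27 pyrimidines. The only overlap between the cell lines in the 9 windows also lay in TCF7L2, in intron 5. There, peaks of RT112 replicate 1 (chr10:114828201-114828618, score of 5.23) and replicate 2 (score of 4.71) shared 53 and 58 bp with a peak of UM-UC-3 replicate 2 (chr10:114827633-114828253, score of 3.87). UM-UC-3 replicate 1 had no peak there. Over all peaks, such an overlap was found for 7.02% and 7.73% of the RT112 peaks and for 5.98% and 5.91% of the UM-UC-3 peaks, and in the 9 windows it was 1 of 39, 1 of 20, 0 of 47 and 1 of 55.

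LEF1, a factor of lymphoid cells and hair follicles that is often itself induced by Wnt signals, lies at chr4:108968701-109090112 on the minus strand. In its window of 141.4 kb, RT112 had 1 peak in replicate 1 and none in replicate 2, and UM-UC-3 had 6 in replicate 1 and 7 in replicate 2. The mean was 3.54 ± 5.0 peaks per Mb in RT112 and 46.0 ± 5.0 in UM-UC-3 (SD, n = 2 each), a difference of 42.4 peaks per Mb (exact permutation test, two-sided p = 0.333). The difference, 0.0424 peaks per kb over the window, was 0.0247 over the gene body alone, 0.0236 with 3 kb on both sides and 0.0141 for peaks with a score of at least 5. All 6 peaks of UM-UC-3 replicate 1 were repeated.

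The repeated LEF1 peaks of UM-UC-3 were spread over the window, with 3 in introns, 2 past the gene end and 1 upstream. The best lay 5.911 kb past the gene end with scores of 3.35 and 6.57. The upstream one, 8.176 kb before the gene start, lay within LEF1-AS1 and scored 2.52 and 5.04. The single RT112 peak, chr4:109043318-109043556 in intron 3, scored 2.76. RT112 replicate 2 had its nearest peak 32.9 kb upstream of the gene.

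Counts grow with the length of a window, so the genes were ordered by mean density. In RT112 the order was TCF7L1 (38.1 peaks per Mb), GSK3B (32.4), TCF7L2 (29.5), CTNNB1 (23.4), APC (12.6), AXIN2 (9.42), AXIN1 (5.86), LEF1 (3.54) and TCF7 (0.0). Each gene differed from the next by less than the larger of their SDs, except for CTNNB1 over APC. In UM-UC-3 the order was APC (50.4), AXIN2 (47.1), TCF7L2 (46.3), LEF1 (46.0), TCF7L1 (43.2), GSK3B (39.2), TCF7 (17.5), AXIN1 (11.7) and CTNNB1 (11.7). Neighbours among the first 6 lay within the spread of the libraries, and the step from GSK3B to TCF7 was larger than it. TCF7 and AXIN1 each held 1 peak in each UM-UC-3 library and differed only in the length of their windows.

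Set beside the 200 protein-coding genes nearest in length, the 9 genes were spread over much of the range. Mean percentiles of density ran from 7.75 (LEF1) to 74.5 (TCF7L1) in RT112. In UM-UC-3 they ran from 13.5 (AXIN1) to 79.5 (APC). The median percentile over the 9 genes was 37.4 for RT112 and 61.2 for UM-UC-3. Without RT112 replicate 1 the RT112 value was 24.25. APC stood at the 28.5th and 16.5th percentile in the RT112 libraries and at the 82nd and 77th in the UM-UC-3 libraries. LEF1 stood at the 9th and 6.5th percentile in RT112 and at the 69th and 75th in UM-UC-3. AXIN1 was low throughout, at the 24th, 12th, 16th and 11th percentile, and TCF7L1 was at the 67th, 82nd, 47th and 75.5th. Since genes are not replicates, no p-value belongs to these percentiles.

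**Figure D2:**
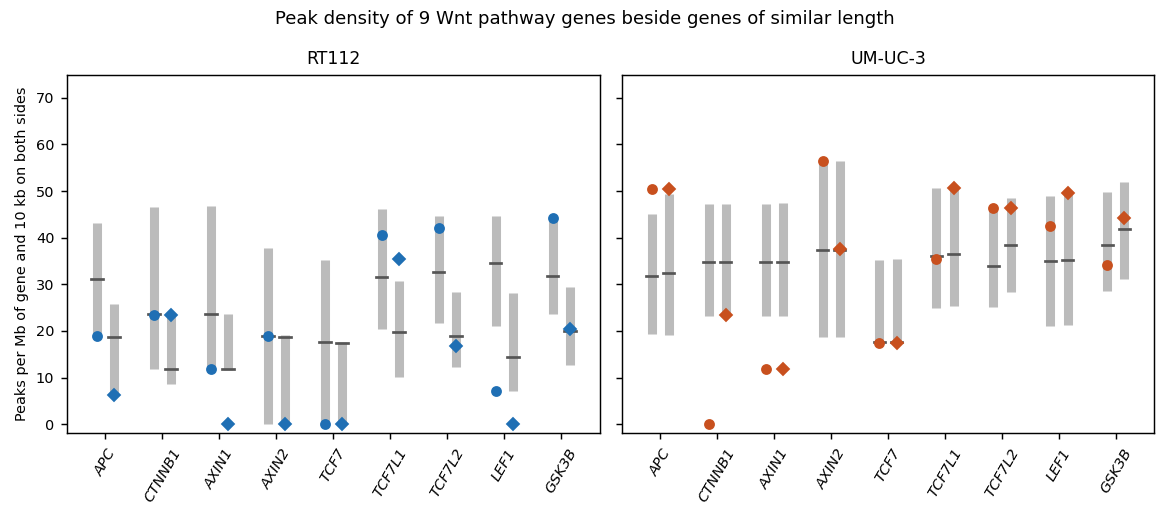
Peaks per Mb of each gene window in RT112 (left) and UM-UC-3 (right), with circles for replicate 1 and diamonds for replicate 2. Grey bars span the lower to the upper quartile of the 200 protein-coding genes nearest in length and dark ticks their median, for the same library. APC and LEF1 lie below the bars or at their lower end in RT112 and above them or in their upper part in UM-UC-3, where LEF1 replicate 1 is inside the bar.

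Peak density also varies along the chromosomes, and copy number differs between cell lines, so the 1 Mb on both sides of each window was counted too. Around APC, RT112 had 39 and 22 peaks per Mb while UM-UC-3 had 47.5 and 48 peaks per Mb. The surroundings of APC were thus denser in UM-UC-3 as well, by 1.57 times in the mean, while the window went from 0.413 times its surroundings in RT112 to 1.06 times in UM-UC-3. Around LEF1, RT112 had 18.5 and 9.5 peaks per Mb while UM-UC-3 had 32 and 27.5, 2.12 times as many, and the window went from 0.253 to 1.55 times its surroundings. Around AXIN2 the ratio between the cell lines was 1.48, and its window went from 0.306 to 1.03 times its surroundings. For TCF7L1 and TCF7L2 the window and its surroundings were alike in both lines, with ratios of 1.11 and 1.13 for TCF7L1 and of 0.929 and 0.936 for TCF7L2. Copy number was not measured here, and its part in these densities was not tested.

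**Figure D3:**
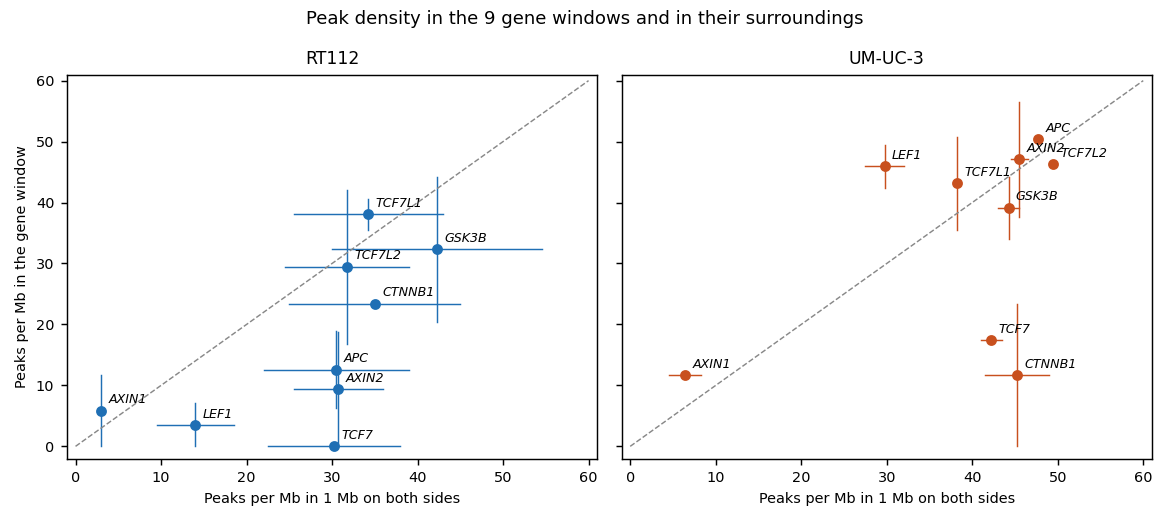
Mean peaks per Mb in the gene window (vertical) and in the 1 Mb on both sides of it (horizontal) in RT112 and UM-UC-3, with lines from the lower to the higher replicate and the dashed diagonal where both are equal. APC, AXIN2 and LEF1 lie below the diagonal in RT112 and on or above it in UM-UC-3, and CTNNB1 lies well below it in UM-UC-3.

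Repeated peaks made up 11 of 39 (28.2%) and 11 of 20 (55%) of the peaks in the RT112 libraries and 35 of 47 (74.5%) and 35 of 55 (63.6%) in the UM-UC-3 libraries. Over all peaks of the libraries the shares were 38.2%, 61.3%, 74.9% and 71.7%. The shares in the windows were lower, but in UM-UC-3 replicate 1 the values were nearly level. Few peaks decide these shares, and the 2 libraries of a line count the same pairs, so they are not independent. A part of the repeated peaks had nearly the same borders in both replicates. Of the pairs, 5 of 11 in RT112 and 21 of 35 in UM-UC-3 began and ended within 1 bp of their counterpart. Whether the replicates were called independently is not given in the sources used here.

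The scores of the peaks in the windows had the median of their libraries, but high scores were less frequent. Their median was 3.8, 4.09, 3.88 and 3.85 in the 4 libraries, the same as the median of all peaks in each. Scores of at least 10 were reached by 2 of 39, 0 of 20, 1 of 47 and 2 of 55 peaks. In each library this share, which rests on few peaks, was below that of all peaks, 10.1%, 8.75%, 9.16% and 9.18%. The peaks with such scores were the APC upstream peak and the TCF7L2 peak in UM-UC-3 replicate 2, the GSK3B peak in UM-UC-3 replicate 1, and the TCF7L1 and GSK3B peaks in RT112 replicate 1. All 5 were repeated. The median score of repeated and single peaks was 5.45 and 3.8 for RT112 replicate 1 and 4.71 and 4.09 for its replicate 2. It was 3.88 and 3.88 for UM-UC-3 replicate 1 and 4.13 and 2.91 for its replicate 2.

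**Figure D4:**
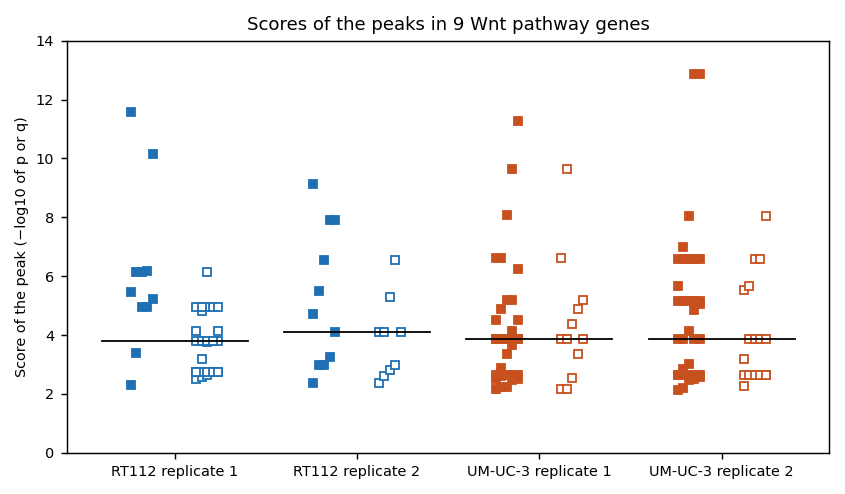
Score of each peak in the 9 gene windows, as −log10 of p or q, by library, with repeated peaks filled on the left and single peaks open on the right. Black lines give the median score of all peaks in the library, from 3.8 to 4.09, and only 5 of the squares reach a score of 10.

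Within 3 kb of an annotated start site of the gene there were 8 and 2 peaks for RT112 replicates 1 and 2 and 9 and 8 for UM-UC-3 replicates 1 and 2, all of them in APC, CTNNB1, AXIN1, AXIN2, TCF7L2 or GSK3B and named above. This was 20.5%, 10%, 19.1% and 14.5% of the peaks in the 9 windows, in the same order, and 13.3%, 13.7%, 13.9% and 14% of those in the windows of all protein-coding genes. Every annotated start site of a gene counted here, and GSK3B has 69 annotated transcripts, CTNNB1 56 and TCF7L2 31. The part of the number of start sites in these shares was not tested. The start site of the canonical transcript had a peak within 3 kb in 0, 0, 1 and 1 of the 9 genes, beside 8.79%, 5.79%, 11.2% and 11.7% of 19881 protein-coding genes with a canonical transcript. The gene was APC, where the intron 1 peak of both UM-UC-3 libraries lay 2.446 kb from it.

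In base composition the peaks resembled their libraries. Median GC content was 42.0%, 43.8%, 41.7% and 41.0% in the windows and 42.3%, 42.7%, 40.0% and 40.0% over all peaks. The longest purine or pyrimidine run in the central 300 bases had a median of 12, 12.5, 12 and 12 bases, beside 11 over all peaks. The 9-letter word GGATTACAG or its reverse complement CTGTAATCC, which is part of the Alu repeat consensus, was present in 5.13%, 10%, 8.51% and 7.27% of the windows' peaks and in 6.18%, 5.08%, 6.97% and 7.1% of all peaks, and 8.11% of 9528558 tiles of 300 bp across the genome held it.

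Since TCF/LEF factors are the nuclear end of the pathway, their core motif CTTTGAT, or ATCAAAG on the other strand, was sought in the same central 300 bases. It was present in 2 of 39, 1 of 20, 1 of 47 and 2 of 55 peaks, which is 5.13%, 5.0%, 2.13% and 3.64%. Over all peaks the shares were 4.99%, 4.88%, 5.18% and 5.15%, and 5.0% of the genomic tiles held the motif. The repeated peaks with the motif were the RT112 peak in intron 4 of TCF7L2 and the UM-UC-3 peak 8.145 kb upstream of APC. Counts of 1 or 2 peaks are too small to compare further.

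The other genes of the pathway were a list of 82 ligands, receptors, inhibitors and effectors, all of which were matched in the annotation. Both replicates had a peak in 43 of them in RT112 (52.4%) and in 50 in UM-UC-3 (61%), near the 50.2% and 65.7% of all genes. By role, both replicates had a peak in 8 of 19 Wnt ligands in RT112 and 9 in UM-UC-3, in 9 and 10 of 15 receptors, and in 5 and 7 of 11 secreted inhibitors. The counts were 7 and 8 of 9 genes of the R-spondin axis, which sets the level of Wnt receptors at the cell surface. They were 6 and 6 of 14 cytoplasmic components and 7 and 8 of 11 nuclear cofactors. Both genes for the secretion of Wnt proteins had one in UM-UC-3 and 1 of them in RT112, and the target CCND1 had none in both replicates of either line. More peaks in both UM-UC-3 libraries were found for 21 of the 82 and more in both RT112 libraries for 12, beside 30.8% and 9.62% of all genes.

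Of these genes, the ligand WNT2B had the highest density held by both RT112 replicates. Its window had 7 peaks in each RT112 library and 2 in each UM-UC-3 library, and the lower RT112 value was 83.7 peaks per Mb. In UM-UC-3 it was SFRP2, a secreted inhibitor that binds Wnt ligands, with 3 and 4 peaks in UM-UC-3 and 1 and 0 in RT112. The lower UM-UC-3 value was 105.3 peaks per Mb in a gene of 8.49 kb, so it rests on 3 peaks.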

How the data were processed

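Anti-PAI-1 ChIP-seq of RT112 and UM-UC-3 was available as 1 peak list for each of 4 ChIP libraries, with groups and replicate numbers taken from the sample labels. According to the methods and the submitters' processing notes, the authors mapped reads to hg19 with Bowtie 1.1.1, removed duplicates with Picard and called peaks with MACS2 2.1.0.20140616. FastQC and Trimmomatic are also listed in those notes. The threshold of the lists, the use of the inputs and any pooling of replicates are not given in the sources used here. The deposited score of each peak was taken to be a −log10 significance of MACS2, of p or of q, since the lists name neither. The lists hold no read counts, so the depth is unknown and intervals that need it are not given.

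Lines with identical intervals were counted once with the highest score. Coordinates of a repeated peak are those of replicate 1 unless replicate 2 is named. The annotation was GENCODE 44 as mapped to GRCh37, and sequences were read from the GRCh37 genome. Coordinates are counted from 1, and distances to start sites run from the midpoint of a peak, whereas distances past a gene end, and to the nearest peak, run between borders. A location in an exon or intron refers to the canonical transcript unless another is named, and overlap with an exon by 1 bp sufficed. The percentile of a gene is that of its peaks per kb among the 200 protein-coding genes nearest in length. Differences between the cell lines were tested gene by gene with the exact permutation test over the 4 libraries; no p-value is given for the 9 windows together. The genes and lists were chosen with earlier results of these data known. Peaks named were the highest-scoring repeated peak of each gene and cell line, every peak within 3 kb of an annotated start site and every overlap between the cell lines; other peaks that are named were chosen after their values were seen. Alternatives were the gene body alone, 3 kb on both sides, a score of at least 5, every line counted, a reciprocal overlap of 50%, other numbers of genes of similar length, each library left out and the replicate number as a block. The overlap and percentile steps were checked on simulated peak positions. The tools were Python 3.11.15 with pandas 2.3.3, numpy 2.4.6, scipy 1.17.1 and matplotlib 3.10.9. Some sequences are not reported here.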

Additional observations from a re-analysis of the deposited data

How the results depend on the processing

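Of the values over the 9 genes together, 50 of 60 recomputed under an alternative stayed within the spread between replicates, or for counts within 1.5 times the reported one. For some of them this was fixed in advance. With 2 libraries in a line, leaving 1 out moves the mean density by less than the spread between them. The replicate block was fixed as well, as given below. Counting every line gave the reported values again. With a score of at least 5, the genes with a peak in both replicates went from 5 to 3 in RT112 and from 8 to 4 in UM-UC-3. Peaks per kb then went from 0.0225 to 0.00573 in RT112 and from 0.0390 to 0.0122 in UM-UC-3, the share of repeated peaks from 41.6% to 66.96% and from 69.05% to 48.48%, and the UM-UC-3 median percentile from 61.25 to 37. That median was 46.0 for the gene body alone, 44 with 3 kb on both sides, and 47.0 to 62.25 with 1 UM-UC-3 library left out. The difference between the cell lines over the 9 windows was 0.0164 peaks per kb and 0.00917 to 0.0237 with 1 library left out. Scaled to 100000 peaks per library it was 0.00671. The replicate block also gave 0.0164, but with both replicate numbers in each line it cannot change a difference of means. It could change no call either, since the smallest p-value of the exact permutation test was 0.333 without the block and 0.5 with it. No label ties replicate numbers of one line to those of the other, and replicate 1 deviated by 9.5 peaks from the mean of RT112 and by -4.0 from that of UM-UC-3. With a score of at least 5, the differences of APC and AXIN2 went from 0.0378 to 0.0189 and from 0.0377 to 0.00942 peaks per kb. For single genes, the direction reversed in GSK3B without RT112 replicate 2 (-0.00511 peaks per kb, with a range of -0.00511 to 0.0187 over single libraries left out) and when scaled (-0.00494), and in TCF7L1 without UM-UC-3 replicate 2 (-0.00254, with a range of -0.00254 to 0.0127) and when scaled (-0.0121). The scaling was chosen after the data had been seen. The cause of these changes was not tested. With no read counts, the depth behind a missing peak is unknown, so an absent peak shows only that none was listed.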
